A study of Homo sapiens with 9 samples.

Results

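CDCA7, CKAP2L, ARHGEF39 and SAPCD2 are genes of dividing cells whose RNA lay above control in HaCaT keratinocytes at the lower concentration of a plastic and below control at the higher one. They were chosen by CPM, the read count scaled to the library's total count, from 52402 gene symbols, as lying above control at 25 µg/ml and below control at 100 µg/ml. All 4 were found, each on 1 row of the count table, and all 4 passed the filter on low counts that left 14637 genes for testing. Their differences between the groups are therefore given as a description, with no test. HaCaT cells are human keratinocytes, cells of the epidermis, that grow as an immortal line. The groups were cells in DMEM culture medium alone (control), cells in that medium with 25 µg/ml polystyrene plastic in fragments (fPS 25), and cells with 100 µg/ml (fPS 100), each kept for 24 h and each with 3 libraries. The cells are 1 line, grown in medium with serum. Whether replicates came from separate cultures is not stated, and a p-value then covers just the spread among these libraries, which may be technical.

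CDCA7 is a zinc finger protein, induced by MYC and E2F1, that recruits the remodelling enzyme HELLS to nucleosomes and is needed to keep DNA methylation. CKAP2L is a protein of the mitotic spindle. ARHGEF39 is a guanine nucleotide exchange factor, a protein that switches on small GTPases. SAPCD2 acts on cell polarity and on the orientation of the spindle. In cycling cells, genes of DNA replication are switched on by E2F factors before S phase. Genes of mitosis are switched on later, through the MuvB complex with MYBL2 and FOXM1, which can act at a short promoter element called the cell cycle genes homology region (CHR), often with CCAAT boxes next to it.

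Per RefSeq on GRCh38.p14, CDCA7 lies on chromosome 2 from 173354872 to 173368997 and CKAP2L on chromosome 2 from 112736349 to 112764609. ARHGEF39 lies on chromosome 9 from 35659343 to 35665195 and SAPCD2 on chromosome 9 from 137062127 to 137070557. CDCA7 is on the plus strand and the other 3 are on the minus strand. The promoters were searched for cell cycle motifs, which the choice of genes did not use. RefSeq promoters on that build were at hand for 3 of the 4 genes, and the 250 bases before each start are printed 5′ to 3′ on the gene's strand. They are chr2:173354622-173354871 for CDCA7, chr2:112764610-112764859 for CKAP2L and chr9:137070558-137070807 for SAPCD2. Capitals mark the matches to a motif: CHR as TTTGAA, the CCAAT box as CCAAT, and the E2F core as GCGGGAA, searched on both strands.
CDCA7: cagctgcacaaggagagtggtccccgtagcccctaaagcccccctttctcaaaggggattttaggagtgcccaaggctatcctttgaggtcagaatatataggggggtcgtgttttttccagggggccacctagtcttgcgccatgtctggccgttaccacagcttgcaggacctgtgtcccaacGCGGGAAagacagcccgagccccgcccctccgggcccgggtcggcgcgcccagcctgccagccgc
CKAP2L: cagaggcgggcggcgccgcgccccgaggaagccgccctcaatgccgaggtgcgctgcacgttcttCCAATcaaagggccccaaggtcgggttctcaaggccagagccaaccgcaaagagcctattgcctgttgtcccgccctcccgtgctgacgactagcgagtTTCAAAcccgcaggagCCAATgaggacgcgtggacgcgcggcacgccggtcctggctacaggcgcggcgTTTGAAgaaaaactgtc
SAPCD2: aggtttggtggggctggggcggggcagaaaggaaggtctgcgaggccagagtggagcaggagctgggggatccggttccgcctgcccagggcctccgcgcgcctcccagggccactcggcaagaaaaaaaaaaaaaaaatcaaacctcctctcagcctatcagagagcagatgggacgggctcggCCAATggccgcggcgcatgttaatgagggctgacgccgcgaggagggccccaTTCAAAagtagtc

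The search found the CHR letters in CKAP2L and SAPCD2 and the E2F core in CDCA7. CKAP2L held TTTGAA from −17 to −12 bases on its own strand, counted back from the transcript start, and again from −86 to −81 on the other strand. SAPCD2 held it from −13 to −8 on the other strand. Both had a CCAAT box further from the start, at −70 to −66 in CKAP2L and at −65 to −61 in SAPCD2, so that the first bases of the nearest CCAAT box and the nearest CHR lay 53 and 52 bases apart. CKAP2L had another CCAAT box at −185 to −181. CDCA7 held the E2F core at −65 to −59 and neither other motif. Among 35116 RefSeq promoters cut to the same length, 13.3% held TTTGAA, 32.0% held CCAAT, 4.69% held both and 5.52% held GCGGGAA. Of 44 promoters of a list of G2 and M phase genes, 23 held TTTGAA, 30 held CCAAT and 3 held GCGGGAA. Of 31 promoters of a list of S phase genes, 2 held TTTGAA, 22 held CCAAT and 13 held GCGGGAA, so that CCAAT was in a similar share of both lists. None of the 3 promoters held the longer E2F letters GGCGGGAA or TTTGGCGC, the CHR variant TTCGAA or the MYC site CACGTG, which 2.72%, 0.550%, 1.19% and 6.34% of all promoters held. A match is a description of letters, not of binding.

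**Figure D1:**
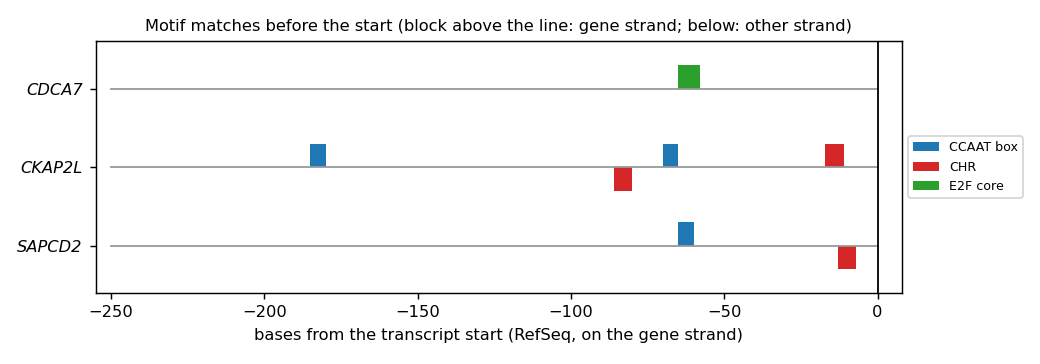
Positions of motif matches in the 250 bases before the transcript start of 3 of the genes, in bases from the start; blocks above a line are on the gene strand and blocks below it on the other strand. CKAP2L and SAPCD2 each have a CHR match within 17 bases of the start and a CCAAT box at −70 and −65, and CDCA7 has an E2F core at −65.

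Libraries held 16428213 to 29274480 counts. Nuclear ribosomal RNA took 6.06% to 8.48% of counts in fPS 100 and 0 counts in fPS 25 and control. This lowers the CPM of every other gene there, so the fold changes below come from libraries scaled by TMM, under which the median log2 fold change of all genes tested was 0.01 for fPS 100 and −0.01 for fPS 25, each over control. The ribosomal share set all fPS 100 libraries apart from all others. A difference in how those libraries were prepared or counted cannot be told apart from the concentration, and was not tested. All 12 keratinocyte markers were counted in every library, with KRT5, a basal keratin, at 1102 to 2256 CPM. Markers of other cells summed to 10.3 to 15.1 CPM for 7 fibroblast genes, 10.7 to 19.3 for 6 leukocyte genes, 2.84 to 4.53 for 5 melanocyte genes and 0.820 to 2.01 for 4 endothelial genes, with PTPRC at 0.0609 CPM or less in all libraries. The leukocyte sum was 10.7 to 11.8 CPM in control, 11.9 to 14.7 in fPS 25 and 17.5 to 19.3 in fPS 100, and most of it was the lysosomal gene CD68. Its part in the results was not tested.

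CDCA7, the HELLS recruiter, had 57.6, 44.7 and 50.9 CPM in the 3 control libraries, 71.3, 76.8 and 75.6 CPM in fPS 25, and 34.9, 34.7 and 25.1 CPM in fPS 100. The group means were 51.1 ± 6.44 in control, 74.6 ± 2.91 in fPS 25 and 31.6 ± 5.59 in fPS 100 (CPM, SD, n = 3 each). The groups did not overlap: the lowest fPS 25 library was 13.7 CPM above the highest control, and the highest fPS 100 library was 9.84 CPM below the lowest control. The counts behind these values ran from 736 to 1797. The log2 fold change over control was 0.54 ± 0.12 (SE) for fPS 25 and −0.58 ± 0.12 for fPS 100.

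CKAP2L, the spindle protein gene, had 57.7, 48.2 and 65.3 CPM in control, 86.5, 95.5 and 82.9 CPM in fPS 25, and 35.8, 37.5 and 25.5 CPM in fPS 100. Means were 57.1 ± 8.56, 88.3 ± 6.49 and 32.9 ± 6.51 CPM in that order (SD, n = 3 each). It had 746 to 2234 counts per library, no overlap between groups and, on the fold scale, the widest swing of the 4 genes. Its log2 fold change over control was 0.63 ± 0.13 for fPS 25 and −0.68 ± 0.13 for fPS 100. NT5DC4, on the other strand, shares 6531 bases of genome with CKAP2L and had 0.786 to 2.96 CPM. How reads there were assigned is not given in the sources used here.

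ARHGEF39, the exchange factor, was the lowest of the 4, with 259 to 516 counts per library. It had 14.7, 15.1 and 16.3 CPM in control, 21.2, 22.1 and 20.5 CPM in fPS 25, and 10.4, 11.7 and 9.36 CPM in fPS 100. Means were 15.4 ± 0.848, 21.2 ± 0.792 and 10.5 ± 1.17 CPM in that order (SD, n = 3 each), and again no library of one group reached into another. Its log2 fold change over control was 0.46 ± 0.11 for fPS 25 and −0.43 ± 0.11 for fPS 100. The gene CCDC107, on the other strand, shares 2169 bases of genome with it. CCDC107 had 3.92, 4.85 and 4.04 CPM in control, 3.71, 3.51 and 3.53 in fPS 25, and 3.76, 4.30 and 5.98 in fPS 100. In fPS 25 all its libraries were below all controls, as for 17.7% of all genes tested, while those of ARHGEF39 were above.

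SAPCD2, of spindle orientation, had the most counts of the 4, from 1888 to 3566 per library, and the smallest fold changes. It had 120.3, 107 and 115 CPM in control, 157, 148 and 155 CPM in fPS 25, and 75.5, 84.7 and 80.5 CPM in fPS 100. Means were 114 ± 6.61, 154 ± 4.48 and 80.2 ± 4.61 CPM in that order (SD, n = 3 each), with no overlap between groups. Its log2 fold change over control was 0.42 ± 0.09 for fPS 25 and −0.38 ± 0.09 for fPS 100.

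**Figure D2:**
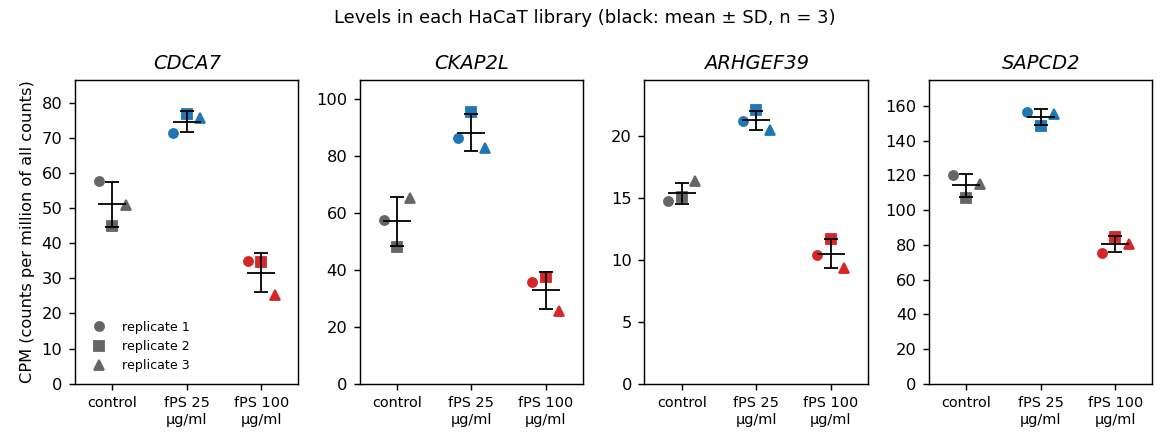
CPM of each gene in every library, with replicates as symbols and the mean ± SD of 3 libraries in black; each panel has its own axis from 0. In all 4 panels the fPS 25 libraries lie above every control and the fPS 100 libraries below every control, as for CDCA7 with means of 51.1, 74.6 and 31.6 CPM in control, fPS 25 and fPS 100.

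The libraries did not overlap in either direction for all 4 genes. Such a count can be read only against the background, and not as evidence, since CPM chose the genes. Of the 14637 genes tested, 15.9% had all fPS 25 libraries above all controls, 29.7% had all fPS 100 libraries below all controls, and 183 genes, 1.25%, had both. With TMM scaling the last count was 115, or 0.786%. By group means alone, 19.9% of genes had the sign pattern of the rule. In the fit with edgeR, 439 genes (3.0%) were called higher in fPS 25 and 2168 (14.8%) lower in fPS 100, each over control at an adjusted p under 0.05. Only 4 genes, 0.0273%, were in both sets in that fit, and they are these 4, so that their choice amounts to this pair of calls. Both comparisons use the same control libraries. Another 2.25% of genes were called lower in fPS 25.

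As worded the rule is a sign, so genes just inside and outside that sign were set beside the 4. The sign alone did not pick the 4, as 19.9% of genes met it by group means. Of the listed cell cycle genes, HMMR, a spindle protein gene, was nearest inside, with a mean CPM of 1.004 times control in fPS 25 and 0.377 times in fPS 100. TACC3, also of the spindle, was nearest outside, at 0.995 and 0.502 times control. The 4 genes were at 1.34 to 1.55 times control in fPS 25 and 0.577 to 0.702 times in fPS 100.

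Levels of different genes were compared on the authors' log2 scale, which is log2 of 1 plus a value corrected for gene length. The order was the same in every group, with SAPCD2 highest, CDCA7 next, then CKAP2L and ARHGEF39. In control the levels were 4.66 ± 0.08, 4.09 ± 0.17, 3.49 ± 0.16 and 2.58 ± 0.08 in that order (SD, n = 3). In fPS 25 they were 5.11 ± 0.04, 4.65 ± 0.07, 4.07 ± 0.10 and 3.199 ± 0.03, and in fPS 100 they were 4.32 ± 0.12, 3.57 ± 0.21, 2.89 ± 0.17 and 2.12 ± 0.18. Within each group, the libraries of neighbours in the order did not overlap.

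Within fPS 100 the 4 genes did not vary alike. Replicate 3 was the lowest of that group for CDCA7 and CKAP2L, at −0.80 and −0.94 on the log2 scale of scaled CPM relative to the control mean, against −0.48 and −0.61 in replicate 1 and −0.43 and −0.47 in replicate 2. SAPCD2 had its highest value of the group in replicate 3, at −0.30, and its lowest in replicate 1, at −0.54. ARHGEF39 was at −0.50, −0.27 and −0.49 in replicates 1, 2 and 3. In fPS 25 all 4 genes lay between 0.37 and 0.74 in all 3 replicates. Replicate 3 of fPS 100 also had the lowest share of mitochondrial protein-coding RNA among counts other than ribosomal RNA, at 2.09%, against 5.34% and 4.62% in replicates 1 and 2. Without that replicate, the log2 fold change of fPS 100 over control was recomputed among the alternatives, and it kept its sign for each gene.

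**Figure D3:**
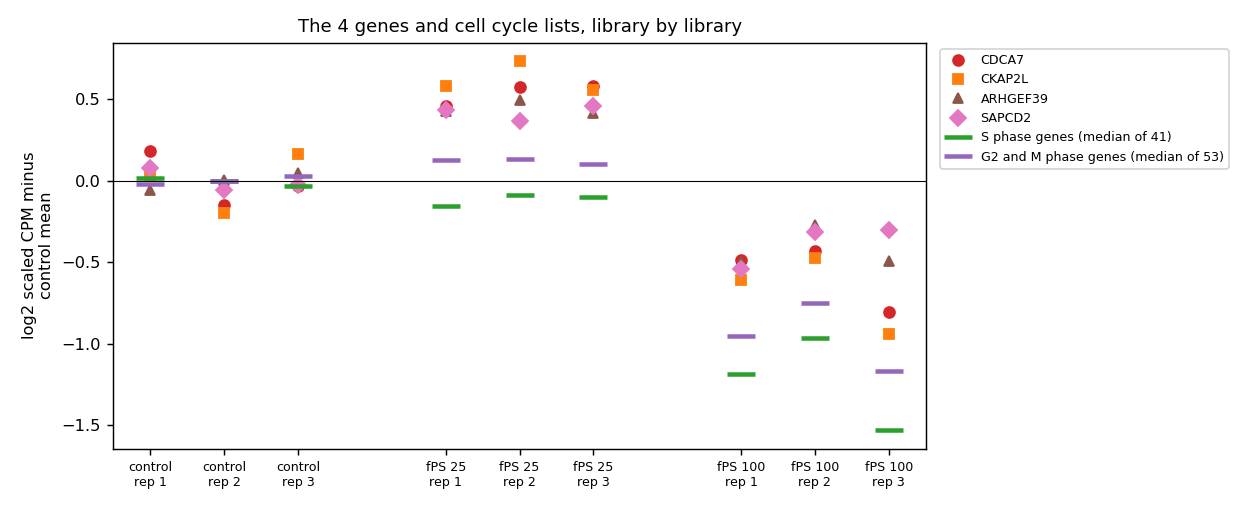
Scaled log2 CPM of the 4 genes in each library, minus the mean of the 3 control libraries, with horizontal bars for the median of 41 S phase genes and of 53 G2 and M phase genes. In fPS 25 the 4 genes lie at 0.37 to 0.74 while the list medians lie between −0.16 and 0.14; in fPS 100 the 4 genes lie above both medians in every library.

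To place the 4 genes in the cell cycle, they were set beside lists of 42 S phase genes and 53 G2 and M phase genes, widely used to score cells and given here without CDCA7 and CKAP2L, which belong to them. In fPS 100 against control, where 30.0% of all genes were called, 40 of 41 tested S phase genes fell and none rose, and 46 of 53 G2 and M phase genes fell and none rose, by edgeR's quasi-likelihood test (Benjamini-Hochberg adjusted p under 0.05; 7 and 1 did not pass in the G2 and M and the S list). The median log2 fold changes were −1.22 and −1.02, against 0.01 over all genes tested. CDC45, a helicase factor, was at −1.76 ± 0.14 (SE), RRM1, of nucleotide synthesis, at −1.38 ± 0.10 and CDC6, the licensing factor, at −1.32 ± 0.10 (edgeR adjusted p = 1.04e-05 for CDC45 and 1.03e-05 for the others). Of the mitotic genes, HJURP, the centromere histone chaperone, was at −1.26 ± 0.09, KIF2C, a microtubule depolymerase, at −1.26 ± 0.09, TPX2 at −1.16 ± 0.09 and GTSE1 at −1.11 ± 0.08 (each at an edgeR adjusted p of 1.03e-05). The 4 genes, at −0.38 to −0.68, were thus less far below control than these list medians; that difference was not tested. In bulk RNA, fewer cells in a phase and less RNA per cell cannot be told apart.

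In fPS 25 against control, where 5.25% of all genes were called, no gene of either list passed in the edgeR fit, while 11 of 41 S phase and 6 of 53 G2 and M phase genes had an unadjusted p under 0.05, as had 20.7% of all genes tested. DESeq2 called 1 S phase gene higher and no other gene of the lists. Without replicate 3 of fPS 100, which is no part of this comparison but of the shared spread, 4 S phase genes were called lower and 1 higher, and 4 G2 and M phase genes higher. The medians were −0.12 for the S phase list and 0.12 for the G2 and M phase list, against −0.01 over all genes tested. Of the S phase list, 11 of 41 genes had a higher mean CPM in fPS 25 than in control, and of the G2 and M phase list 41 of 53, beside 49.9% of all genes tested. The summed CPM of the S phase list was 4024 to 4136 in fPS 25, against 4380 to 4498 in control, and that of the G2 and M phase list was 9529 to 9757 in fPS 25, against 8692 to 9275 in control. In neither list did the library sums of the groups overlap.

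The full pattern of the 4 genes, all fPS 25 libraries above and all fPS 100 libraries below all controls by CPM, was also found in 16 of 53 G2 and M phase genes and 4 of 41 S phase genes, beside 1.25% of all genes tested. With TMM scaling the counts were 17 and 5. Nearly all genes of both lists were lower in fPS 100, so these counts rest on fPS 25. By CPM, all fPS 25 libraries lay above all controls in just the same 16 and 4 genes. These are 30.2% and 9.76% of the lists, beside 15.9% of all genes tested, so that the S phase share was below that background. The 16 included CKAP2, AURKA, BIRC5, CDCA3, CDCA8, CENPA, CKS2, NEK2 and SMC4, and the 4 were POLD3, TYMS, UHRF1 and USP1. These names were given after their values were seen.

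**Figure D4:**
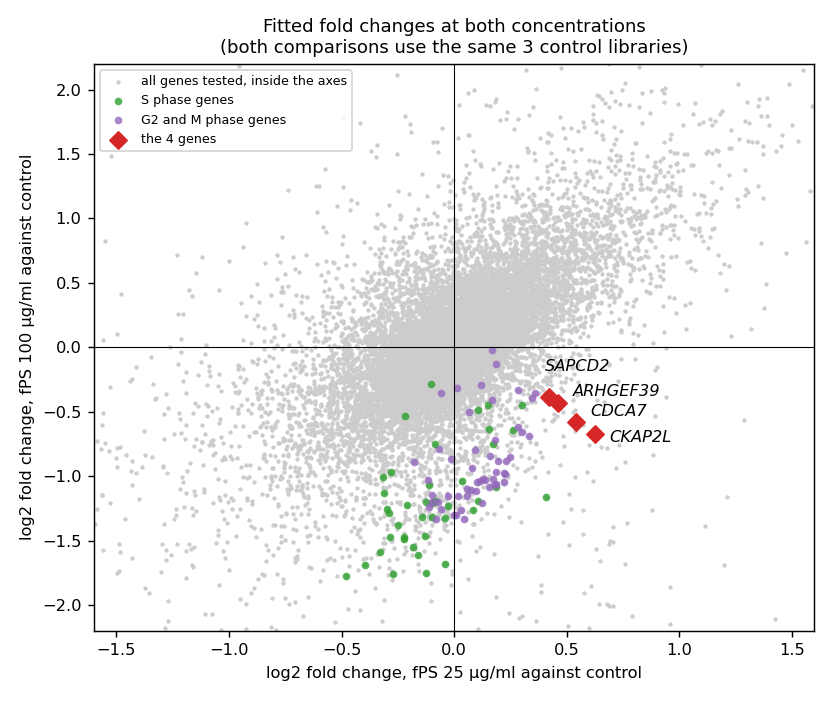
Fitted log2 fold change over control in fPS 25 on the horizontal axis and in fPS 100 on the vertical axis, for all genes tested inside the axes (grey), S phase genes (green), G2 and M phase genes (purple) and the 4 genes (red diamonds); both axes use the same 3 control libraries. The 4 genes lie at 0.42 to 0.63 and −0.38 to −0.68, in the lower right, while the lists centre near 0 on the horizontal axis at medians of −1.22 and −1.02 on the vertical one.

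In fPS 100 against fPS 25 the 4 genes had log2 fold changes of −1.12 ± 0.12 for CDCA7, −1.30 ± 0.13 for CKAP2L, −0.89 ± 0.11 for ARHGEF39 and −0.81 ± 0.09 for SAPCD2 (SE). These follow from the values that chose the genes and are not tested. In this comparison 13.7% of all genes were called, 6.31% higher and 7.43% lower, and 28.4% had all fPS 100 libraries below all fPS 25 libraries, as the 4 genes did, and 9.86% above them. By edgeR's test 39 of 41 S phase genes and 49 of 53 G2 and M phase genes fell, with medians of −1.13 and −1.12. Here the 4 genes lay on both sides of the list medians.

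HELLS, the enzyme that CDCA7 recruits, did not follow CDCA7 above control in fPS 25. It had 56.5, 59.9 and 61.2 CPM in fPS 25, against 72.8, 69.8 and 73.2 CPM in control. All 3 fPS 25 libraries were below all controls, as for 17.7% of all genes tested, while the log2 fold change of −0.29 ± 0.16 did not pass (edgeR adjusted p = 0.35). It passed without replicate 3 of fPS 100 (0.0194) and with only the compared groups (0.0346), within a range of 0.0194 to 0.617 over the alternatives. In fPS 100 HELLS fell, at 28.9, 28.03 and 15.3 CPM (log2 fold change over control −1.47 ± 0.17, edgeR adjusted p = 0.000106). CDCA7L, the paralog of CDCA7, was at 103, 106 and 100.0 CPM in fPS 25, against 92.5, 85.7 and 98.3 CPM in control, a log2 fold change of 0.16 ± 0.11 (edgeR adjusted p = 0.455). CDCA7L fell in fPS 100, with a log2 fold change of −0.33 ± 0.11 (edgeR adjusted p = 0.0447). That call ended when any one library other than replicate 1 of fPS 100 was left out, at 0.0544 to 0.113, and with only the compared groups (0.105).

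Of 9 genes of the list with CDCA7's paralog and the DNA methylation enzymes, 5 fell, 2 rose and 2 did not pass in fPS 100, where 14.8% of all genes were called lower and 15.2% higher. The 2 that rose were MYC at 0.87 ± 0.23 (edgeR adjusted p = 0.0158) and DNMT3A at 0.82 ± 0.17 (0.00453). UHRF1, which brings the maintenance methyltransferase to replicated DNA, was at −0.64 ± 0.09 (edgeR adjusted p = 0.000528), DNMT1, that methyltransferase, at −0.93 ± 0.09 (3.83e-05), and E2F1 at −1.51 ± 0.17 (0.000111). DNMT3B, a de novo methyltransferase, was the 1 gene of the list that passed in fPS 25, where 5.25% of all genes were called. It had 12.5, 11.2 and 8.93 CPM in fPS 25, against 4.42, 3.15 and 4.86 CPM in control (log2 fold change 1.39 ± 0.24, edgeR adjusted p = 0.00896). The call ended without replicate 2 of fPS 25 (1.37, adjusted p = 0.0503). In fPS 100 DNMT3B had 5.99, 6.75 and 3.38 CPM, and 0.49 ± 0.24 did not pass with all libraries (edgeR adjusted p = 0.143), while it passed without replicate 3 of fPS 100 (0.71, adjusted p = 0.0137). All 5 other CDCA genes fell in fPS 100 (median −1.02) and none passed in fPS 25 in the edgeR fit. There 2 had an unadjusted p under 0.05, beside 20.7% of all genes. CDCA5, a cohesin regulator, was at −1.73 ± 0.12 in fPS 100 (edgeR adjusted p = 8.73e-06) and at −0.43 ± 0.12 in fPS 25 (0.0569). CDCA5 was called lower in fPS 25 by DESeq2 (adjusted p = 0.0161), and by edgeR without control replicate 3 (0.0319) or fPS 100 replicate 3 (0.0275), with no filter or with only the compared groups (0.0168 and 0.0389). CDCA8, a subunit of the chromosomal passenger complex, was at 0.18 ± 0.11 in fPS 25 and −1.07 ± 0.11 in fPS 100 over control. In the same order CDCA3 was at 0.22 ± 0.09 and −0.97 ± 0.09, and CDCA2 at 0.13 ± 0.10 and −1.02 ± 0.11. CDCA2, CDCA3 and CDCA8 are also in the G2 and M phase list counted above.

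CKAP2, the paralog of CKAP2L, had 129.5, 118 and 149.9 CPM in control, 166, 165 and 155 CPM in fPS 25, and 105, 108 and 77.7 CPM in fPS 100. Its groups did not overlap and were ordered like those of CKAP2L, as for 1.25% of all genes tested. CKAP2 is 1 of the 16 of 53 G2 and M phase genes with that order. The log2 fold change of CKAP2 over control was 0.28 ± 0.11 in fPS 25 (edgeR adjusted p = 0.167) and −0.33 ± 0.11 in fPS 100 (0.0386). The call in fPS 25 was made without replicate 3 of fPS 100 (0.0373). The call in fPS 100 ended without any one library other than control replicate 2 or fPS 100 replicate 2, at 0.0577 to 0.114, and with only the compared groups (0.095). All 12 genes of the spindle assembly list fell in fPS 100 (median −0.95), where 14.8% of all genes were called lower. None passed in fPS 25 in the edgeR fit (median 0.03), where 2 had an unadjusted p under 0.05, beside 20.7% of all genes. CKAP2, CKAP5, TPX2, AURKA, NUSAP1, HMMR, KIF11 and TACC3 are also in the G2 and M phase list counted above. Of the 12 genes, HAUS8, a subunit of the augmin complex, was at −1.20 ± 0.10, PRC1, which bundles the midzone, at −1.04 ± 0.10 and the kinase AURKA at −0.84 ± 0.10 in fPS 100 over control (edgeR adjusted p = 1.26e-05, 4.05e-05 and 0.000111).

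Of 26 listed members of the wider ARHGEF family 20 were tested: in fPS 100 against control 5 rose, none fell and 15 did not pass (median 0.09), and in fPS 25 1 rose and 1 fell (median 0.11). Over all genes 15.2% were called higher and 14.8% lower in fPS 100, and 3.0% higher and 2.25% lower in fPS 25. ARHGEF10L had 5.96 ± 0.629 CPM in control, 8.55 ± 0.881 CPM in fPS 25 and 13.4 ± 1.02 CPM in fPS 100 (SD, n = 3 each). Its log2 fold changes over control were 0.51 ± 0.13 (edgeR adjusted p = 0.0474) and 1.29 ± 0.13 (4.79e-05). ARHGEF40 was at 0.91 ± 0.13 in fPS 100 (0.000532) and ARHGEF4 at 0.58 ± 0.11 (0.00296). ARHGEF12 was at 0.58 ± 0.18 (0.0308), a call that ended without control replicate 1 or 2 or fPS 100 replicate 1 or 2 (0.0584 to 0.0933), or with only the compared groups (0.0563). ARHGEF37 was the gene that fell in fPS 25, with a log2 fold change of −0.54 ± 0.14 (edgeR adjusted p = 0.0464).

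ECT2, the exchange factor that activates RHOA at the cleavage furrow, had 161, 143 and 193 CPM in control, 184, 178 and 169.6 CPM in fPS 25, and 98.3, 96.5 and 68.5 CPM in fPS 100. It fell in fPS 100 (−0.80 ± 0.12, edgeR adjusted p = 0.000664) and was at 0.09 ± 0.12 in fPS 25 (0.713). RACGAP1 and KIF23, which form the centralspindlin complex, were at −0.87 ± 0.09 and −1.10 ± 0.09 in fPS 100 (edgeR adjusted p = 4.58e-05 and 1.26e-05). RHOB, an inducible small GTPase, was higher at each concentration, with 30.8, 28.02 and 29.7 CPM in control, 46.7, 45.5 and 41.9 CPM in fPS 25, and 68.8, 68.0 and 61.8 CPM in fPS 100. Its log2 fold changes were 0.59 ± 0.08 (edgeR adjusted p = 0.00279) and 1.29 ± 0.08 (5.05e-06). CDC42, the GTPase of filopodia and polarity, was at 0.36 ± 0.09 in fPS 25 (0.037) and 0.55 ± 0.09 in fPS 100 (0.000834). The calls of CDC42, ARHGEF10L and ARHGEF37 in fPS 25, and that of PARD6A below, ended without any one of the control or fPS 25 libraries, at 0.0538 to 0.196. Those of CDC42, ARHGEF10L and ARHGEF37 also ended without fPS 100 replicate 2 (0.0539 to 0.0656), and that of ARHGEF10L without fPS 100 replicate 1 (0.0593) or with no filter (0.0587). That of ARHGEF37 ended with ribosomal RNA genes removed (0.053).

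Of SAPCD2's setting, 18 genes of polarity and spindle orientation were listed and 16 tested. In fPS 100 against control 4 rose, 3 fell and 9 did not pass (median 0.13), and in fPS 25 1 fell (median 0.08). Over all genes 30.0% were called in the comparison of fPS 100 and 5.25% in that of fPS 25. GPSM2, the spindle anchor also called LGN, had 48.5, 41.6 and 50.4 CPM in control, 54.5, 52.6 and 49.4 CPM in fPS 25, and 30.8, 33.0 and 26.5 CPM in fPS 100. It fell in fPS 100 (−0.51 ± 0.10, edgeR adjusted p = 0.00219), as did its partner NUMA1 (−0.69 ± 0.09, 0.000242), while GPSM2 was at 0.15 ± 0.09 in fPS 25 (0.401). PARD3, a polarity scaffold, was at 0.47 ± 0.11 in fPS 100 (0.00701). PARD6A, another, fell at each concentration, at −1.07 ± 0.26 in fPS 25 (0.037) and −1.21 ± 0.26 in fPS 100 (0.00458). SAPCD1, the paralog of SAPCD2, had 0 counts in all 9 libraries, which allows up to 0.102 to 0.183 CPM, 3 counts, per library; such limits cover counting error only.

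A list of E2F factors, MuvB subunits and related cell cycle regulators had 19 genes tested. Whether they act on the 4 genes in these cells was not tested. In fPS 100, 12 fell, 2 rose and 5 did not pass (median −0.50), beside 14.8% lower and 15.2% higher over all genes. None passed in fPS 25 in the edgeR fit (median −0.02), where 4 had an unadjusted p under 0.05, beside 20.7% of all genes. MYBL2 and FOXM1, the activators of mitotic genes, were at −1.56 ± 0.09 and −1.31 ± 0.09 in fPS 100 (edgeR adjusted p = 4.47e-06 and 8.73e-06). In fPS 25 MYBL2 was at −0.17 ± 0.09 (0.309), FOXM1 at −0.02 ± 0.09 (0.941) and E2F1 at −0.40 ± 0.17 (0.20). CDKN1A, which encodes the inhibitor p21, stood at 1.43 ± 0.11 in fPS 100 (1.03e-05) and 0.20 ± 0.11 in fPS 25 (0.332).

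The genes closest in profile were found by the root mean square difference of log2 CPM, centred on each gene's mean, over the 9 libraries and 10405 other genes at 5 CPM or more. By this measure the 4 genes stood in pairs. CKAP2L was the closest of all to CDCA7, and CDCA7 to CKAP2L, at 0.125. SAPCD2 was second closest to ARHGEF39 and ARHGEF39 closest to SAPCD2, at 0.0972. CKAP2L and SAPCD2 were furthest apart, at 0.27. Next to CDCA7 stood POLQ, a DNA polymerase of end joining, at 0.127 and C21orf58 at 0.135, and next to CKAP2L stood POLQ at 0.143 and NEURL1B, a ubiquitin ligase of the Notch pathway, at 0.144. POLQ had 17.3 ± 2.86, 26.9 ± 2.76 and 12.0 ± 2.99 CPM in control, fPS 25 and fPS 100 (SD, n = 3 each). The other neighbours of ARHGEF39 were USP1, a deubiquitinase of DNA repair, at 0.0961 and FAM64A at 0.109, and those of SAPCD2 were KPNA2, a nuclear import receptor, at 0.107 and NDC1, a nuclear pore protein, at 0.114. USP1 had 91.2 ± 4.93, 112.8 ± 2.24 and 61.6 ± 8.03 CPM in control, fPS 25 and fPS 100. As all profiles share the libraries and the group means dominate them, this likeness is a description.

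The authors' length-scaled values gave ARHGEF39 a larger distance from control than its counts did. Dividing the CPM by the authors' value, taken back to the linear scale, gives a quantity that stays the same across libraries, apart from a factor shared by all genes of a library, if the length assigned to the gene does. For ARHGEF39 it was 3.11, 3.10 and 3.03 in control, 2.53, 2.74 and 2.52 in fPS 25, and 3.01, 3.01 and 3.36 in fPS 100. The fPS 25 libraries lay below all others, with means of 2.597 ± 0.125 in fPS 25 and 3.08 ± 0.0425 in control (SD, n = 3 each). A 2-sided exact permutation test of fPS 25 against control gave p = 0.1, the smallest that 3 against 3 allows. It was 1 of 12 such comparisons over the 4 genes, 8 of which gave that p, and its Benjamini-Hochberg adjusted p over the exact permutation tests was 0.15. With that smallest p, no such test could pass 0.05. The tests also left in the factor shared by all genes of a library. CDCA7 and SAPCD2 in fPS 100, at 0.902 and 0.900 times control, gave that p too. The tests thus cannot decide whether the length assigned to a gene differed, and no conclusion is drawn from them. After the library's median over 9776 genes at 5 CPM or more was taken out, the log2 shift of fPS 25 from control was −0.22 for ARHGEF39, −0.01 for CDCA7, 0.04 for CKAP2L and −0.00284 for SAPCD2. The shift of fPS 100 from control, taken the same way, was 0.17 for ARHGEF39, in the opposite direction, and 0.0028 for CDCA7, 0.02 for CKAP2L and −0.0004 for SAPCD2. For the fPS 25 shift over those genes the 5th and 95th percentiles were −0.05 and 0.04, and 0.184% of genes were at or below ARHGEF39. ARHGEF39 was singled out for this after its values were seen, and the part of the overlap with CCDC107 was not tested.

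**Figure D5:**
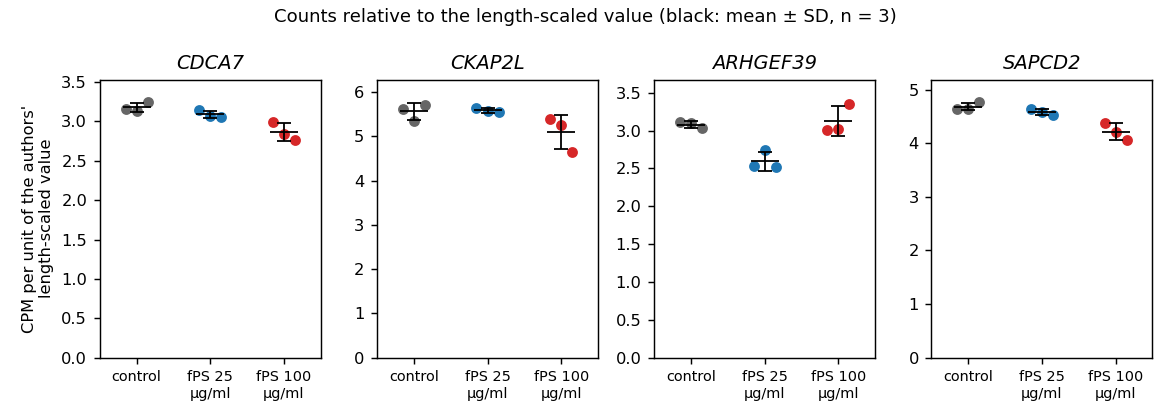
CPM divided by the authors' length-scaled value on the linear scale, per gene and library, with the mean ± SD of 3 libraries in black; each panel has its own axis from 0. The fPS 25 libraries of ARHGEF39 lie at 2.52 to 2.74, below its 3 controls at 3.03 to 3.11.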

How the data were processed

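RNA of 9 HaCaT libraries was sequenced after poly(A) selection, per the labels. The authors deposited a table of read counts, whole numbers with no normalization, and per library a log2 value, read from the values and their ratio to the counts as log2 of 1 plus a length- and depth-scaled value, whose kind of scaling is not given. The submitters' processing notes name bcl2fastq and GRCh38.p14. No source used here names the aligner, the counting program or the use of strand.

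Rows of a symbol were summed. Genes were kept by filterByExpr (minimum count 10, minimum total 15), scaled by TMM and tested in 1 fit of all 9 libraries by edgeR 4.0.16 (quasi-likelihood, robust; R 4.3.3), with 6 residual degrees of freedom and Benjamini-Hochberg adjustment over 14637 genes. SEs were derived from each fold change and its F statistic. The procedure was tested on simulated data. Profiles used log2 of CPM plus 0.5.

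The 4 genes and all lists were chosen with earlier results of these data known. Named from the lists were paralogs and partners, up to 4 genes with the smallest adjusted p in fPS 100, and up to 4 called in fPS 25. MYC and DNMT3A were named besides, as the genes of their list that rose in fPS 100. Alternatives were RLE scaling, other filters, DESeq2 1.42.0, only the compared groups, a replicate block, ribosomal RNA genes removed, unscaled CPM, the authors' log2 values, and each library left out.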

Additional observations from a re-analysis of the deposited data

How the results depend on the processing

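The 4 genes kept the sign of every log2 fold change under all 18 alternatives run for each. Against control the ranges were 0.48 to 0.64 in fPS 25 and −0.69 to −0.47 in fPS 100 for CDCA7, 0.54 to 0.71 and −0.79 to −0.55 for CKAP2L, 0.43 to 0.62 and −0.54 to −0.39 for ARHGEF39, and 0.40 to 0.46 and −0.51 to −0.31 for SAPCD2. Without a scaling factor, ARHGEF39 and SAPCD2 moved to −0.54 and −0.51 in fPS 100 against control and to −0.99 and −0.93 in fPS 100 against fPS 25. With the authors' log2 values ARHGEF39 moved to 0.62 in fPS 25 against control and −1.08 in fPS 100 against fPS 25. The number of genes called in fPS 25 against control depended on the processing. It was 768 (439 higher, 329 lower) as reported, 1237 (697 and 540) with no filter, 1233 (684 and 549) with DESeq2, 1511 (789 and 722) with only the compared groups and 318 (193 and 125) with the replicate block. It ran from 135 to 1946 (91 to 986 higher, 44 to 960 lower) when 1 library was left out, lowest without fPS 25 replicate 2 and highest without fPS 100 replicate 3. S phase genes called lower were 1 with no filter and 4 with only the compared groups, and those called higher 1 with DESeq2 and 1 with only the compared groups. G2 and M phase genes called higher were 1 and 3 with no filter and with only the compared groups. With 1 library left out these counts ran from 0 to 4, 0 to 1 and 0 to 4. In fPS 100 against fPS 25, genes called higher were 614 with the replicate block, against 924, and leaving out 1 library gave 1018 to 2706 genes, 379 to 1283 higher and 639 to 1423 lower. The correlations of deviations between libraries of the same replicate number ran from −0.666 to 0.112. Libraries of different numbers were not compared, so these values do not settle whether the numbers pair the libraries. The block ended the calls of CKAP2 and CDCA7L in fPS 100 and of CDC42, ARHGEF10L, ARHGEF37 and PARD6A in fPS 25, each over control. It ended no other call of the 39 named genes. Of 1872 values of 39 named genes under the alternatives, 1788 kept their side of the threshold, 63 lost a call and 21 gained a call. No value with a call in either fit changed sign, and sign changes of values without a call were not counted. MYC and DNMT3A were not among the 39. ARHGEF39 had the fewest counts of the 4, 259 to 516, and so the largest counting error, though not the largest spread between libraries.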
